A study of Mus musculus with 18 samples.

Results

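Untreated bone marrow-derived macrophages (BMDM) from Apoe-/-/Treml4-/- double-knockout (DKO) mice were compared with untreated BMDM from Apoe-/- mice, to ask which transcripts differ without Treml4 before any lipid is added. The comparison used every library of these 2 groups, 3 DKO and 3 Apoe-/- libraries of the 18 in the series, and every gene with at least 0.1 RPKM (reads scaled to the length of the transcript and the depth of the library) in at least 3 of the 18 libraries, which were 12838 of the 18668 genes in the table. Marrow of C57BL6 background mice was grown with M-CSF, the cytokine that drives macrophage differentiation, and the untreated cells received vehicle (PBS) for 16 h per the series design. The other 12 libraries came from the same genotypes given 10 or 60 µg/ml oxidized low-density lipoprotein (oxLDL). Both groups lack Apoe, so no library has an intact Apoe gene, and the Treml4 deletion is a germline one present in all cells of the mouse. The DKO line was made by crossing Apoe-/- mice with Treml4-/- mice and was then bred on its own, so that genotype and breeding line cannot be told apart. The 3 replicates of a group are biological replicates per the series design.

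Treml4 is a cell surface receptor of the TREM family of myeloid cells, which pairs with the signalling adaptor Tyrobp (DAP12) and is known for binding dead cells and for strengthening responses of endosomal Toll-like receptors. Macrophages take up dead cells and lipoproteins, recycle their iron and cholesterol, and in M-CSF culture they also divide. Apoe encodes the apolipoprotein by which lipoproteins are cleared, and its loss in mice gives high blood cholesterol and atherosclerosis.

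The depth of the 6 libraries, recovered from the steps between low values, was 41519872 to 49182502 reads. The 10 macrophage markers summed to 9118 to 11983 RPKM in Apoe-/- and 8590 to 11183 RPKM in DKO libraries, with Lyz2 the most abundant. Markers of dendritic cells, mast cells, T and NK cells, B cells and erythroid cells each summed to at most 2.46 RPKM in every library. Endothelial markers summed to 5.29 to 7.81 RPKM, and megakaryocyte markers to 127 to 182 RPKM, of which Pf4, at 126 to 181 RPKM, made up nearly all. Some libraries differed in ways that the groups do not explain. Apoe-/- replicate 2 and DKO replicate 3 held 12.5 and 14.5 RPKM of Xist, which is transcribed from the inactive X chromosome, and a summed Y-linked level of 0.0515 and 0 RPKM, against 45.4 to 63.4 RPKM of Y-linked genes in the other 4 libraries. Each group thus held 1 female-type library, and a fit with a term for these Xist-positive libraries is given beside the main fit. The same replicate numbers were Xist-positive at both amounts of oxLDL, 6 of the 18 libraries. The term treats these 6 as independent, although libraries with the same replicate number correlate within a genotype. Its p-values do not allow for that and may be too small. Apoe-/- replicate 1 had the lowest summed RPKM, 345768 against 375374 to 386769 in the others, and the highest levels of Rn45s (6312 against 1074 to 2200 RPKM) and Lars2 (3648 against 27.8 to 799 RPKM). The 10 stromal markers summed to 25.3 and 16.3 RPKM in Apoe-/- replicates 1 and 3, against 1.67 to 9.82 RPKM in the other 4 libraries.

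Treml4 was measured at 1.86, 3.48 and 2.60 RPKM in the Apoe-/- libraries and at 0, 0.0116 and 0 RPKM in the DKO libraries. These values correspond to 142, 263 and 202 reads against 0, 1 and 0 reads. The genotype labels and the Treml4 transcript thus go together in all 6 libraries. Summed over each group, the DKO level was 0.164% of the Apoe-/- level, with an exact 95% interval of 0.00413 to 0.915% that covers counting error only. The fitted difference on the log2(RPKM + 0.1) scale was -4.69 ± 0.16 (SE, adjusted p = 1.4e-11). A two-sided exact test that permuted the 6 libraries gave p = 0.1, which is the smallest possible for 3 against 3. The neighbouring TREM genes on the same chromosome did not pass the test. Trem2, the lipid receptor of the family, was at 306 to 390 RPKM in Apoe-/- and 357 to 401 RPKM in DKO libraries, and Tyrobp was at 874 to 1098 and 1032 to 1094 RPKM.

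Apoe itself was low in both genotypes, with 0.938, 1.87 and 1.15 RPKM in the Apoe-/- libraries and 0.348, 0.397 and 0.774 RPKM in the DKO libraries. In reads these are 65, 128 and 81 against 23, 31 and 51. All 3 DKO libraries lay below all 3 Apoe-/- libraries, and within each genotype the Xist-positive library was the highest. The log2 difference of -1.24 ± 0.40 did not pass the test (adjusted p = 0.15), and it passed with the term for Xist-positive libraries (adjusted p = 4.4e-05).

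Between the untreated genotypes 27 genes were called, at an adjusted p under 0.05 and a fold of at least 1.4. This is 0.21% of the genes tested, with 22 genes higher in DKO (0.171%) and 5 lower (0.0389%). Of the called genes, 8 were at least 10 RPKM in a group mean and 3 were under 1 RPKM in both. On the log2(RPKM + 0.1) scale 8 of those higher and 3 of those lower reached a 2-fold difference, and by the ratio of mean RPKM 10 and 3 did. The libraries of the 2 genotypes did not overlap for any of the 27, against 18.3% of all tested genes with all DKO libraries above and 1.23% with all below. The genes were called on the difference between these same libraries, so the separation adds no support to the calls. The whole distribution lay slightly above 0, with a median log2 difference of 0.09, and 2064 genes were higher in DKO at an unadjusted p under 0.05 (16.1%) against 161 lower (1.25%). After rescaling the libraries to a common median ratio the median was -0.01, with 752 genes higher (5.86%) and 794 lower (6.18%) at that p. The called genes then numbered 23, of which 14 were higher and 9 lower. Of the 27 genes, 19 kept their call with this rescaling. Cdca7, H2-Q6, H2-Q9, Lancl3, Ly6a, Mcrip2, Notch4 and Nt5e, all higher in DKO, lost it. With the term for Xist-positive libraries 172 genes were called (1.34%), 127 higher (0.989%) and 45 lower (0.351%), and these included all 27. The limit given above for this term holds for these calls.

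**Figure D1:**
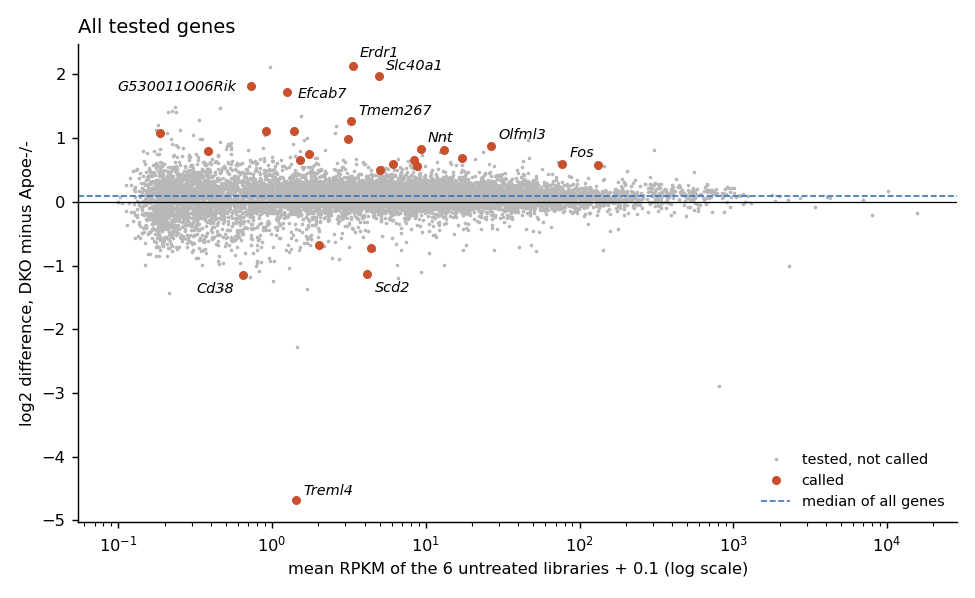
Log2 difference of DKO minus Apoe-/- against the mean level in the 6 untreated libraries for 12838 tested genes (horizontal axis logarithmic, RPKM + 0.1). Called genes are in orange, and the dashed line is the median of all genes, 0.09; Treml4 stands apart at -4.69, and the highest called genes lie near 2.

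**Figure D2:**
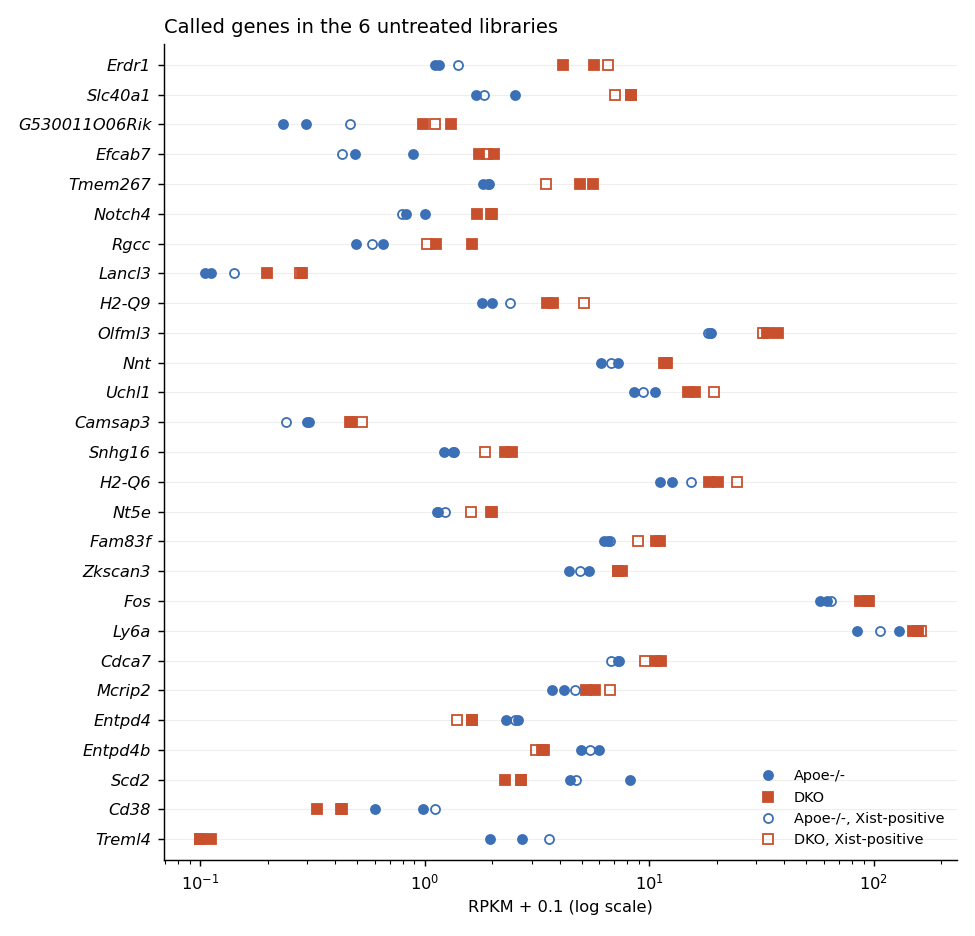
Level of each of the 27 called genes in each of the 6 untreated libraries (RPKM + 0.1, logarithmic axis), ordered by log2 difference; circles are Apoe-/- and squares DKO libraries, and open symbols are the Xist-positive library of each genotype. For every gene the 3 DKO libraries lie on 1 side of the 3 Apoe-/- libraries.

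Slc40a1, which encodes ferroportin, the only known cellular iron exporter, was higher in DKO. It was measured at 1.59, 1.74 and 2.42 RPKM in Apoe-/- and at 8.18, 8.23 and 6.91 RPKM in DKO libraries. The groups were far apart relative to their spread, with a 4.06-fold ratio of means and a log2 difference of 1.98 ± 0.15 (adjusted p = 2.6e-06). Of 30 measured genes of iron handling, Slc40a1 was the one called, where 0.21% of all genes were called. At an unadjusted p under 0.05, 3 were higher and 1 lower, against 16.1% and 1.25% of all genes. After rescaling of the libraries 1 was higher and 3 were lower, against 5.86% and 6.18% of all genes. The ferritin light chain gene Ftl1 was at 8626 to 10397 RPKM in Apoe-/- and 9916 to 11384 RPKM in DKO libraries, with overlap. The transferrin receptor gene Tfrc, through which cells take iron up, was at 15.6 to 23.3 and 20.6 to 29.7 RPKM. The haemoglobin scavenger receptor gene Cd163 was at 0.546 to 0.633 RPKM in Apoe-/- and 0.230 to 0.343 RPKM in DKO libraries and did not pass (adjusted p = 0.105).

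Nnt encodes nicotinamide nucleotide transhydrogenase, the inner mitochondrial membrane enzyme that makes NADPH from NADH, and is known for a multi-exon deletion in the C57BL/6J substrain. Its level was 5.99, 6.67 and 7.17 RPKM in Apoe-/- and 11.5, 11.8 and 11.9 RPKM in DKO libraries. The 3 DKO libraries were nearly equal, and the log2 difference was 0.82 ± 0.07 (adjusted p = 4.0e-06). The table gives 1 value a gene, so exons of Nnt were not analysed here, and the labels give the strain as C57BL6 without a substrain. Tmem267, a transmembrane protein gene 79.04 kb from Nnt on chromosome 13, was at 1.81, 1.84 and 1.73 RPKM in Apoe-/- and 5.53, 4.81 and 3.38 RPKM in DKO libraries, a log2 difference of 1.28 ± 0.22 (adjusted p = 0.019). DKO replicate 3 was the lowest of its group and still above every Apoe-/- library. The transcripts of Nnt and Tmem267 share 0 of their 50-base stretches in GENCODE M21, and Paip1, between them next to Nnt, differed by 0.09 (unadjusted p = 0.16). Among 17 measured mitochondrial redox genes Nnt was the one called, where 0.21% of all genes were called. Prdx3, the mitochondrial peroxiredoxin, was at 31.7 to 36.7 RPKM in Apoe-/- and 38.1 to 39.0 RPKM in DKO libraries (adjusted p = 0.13).

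Erdr1, G530011O06Rik and Lancl3 lie on the X chromosome. Erdr1, named for erythroid differentiation and located in the pseudoautosomal region shared by X and Y, was measured at 1.06, 1.31 and 1.01 RPKM in Apoe-/- and at 5.57, 4.05 and 6.47 RPKM in DKO libraries. Its log2 difference of 2.14 ± 0.25 was the largest increase among the called genes on the log2(RPKM + 0.1) scale (adjusted p = 4.9e-04). The noncoding gene G530011O06Rik, 31.61 kb from Erdr1 in RefSeq, was at 0.134, 0.364 and 0.197 RPKM against 0.883, 1.2 and 1.02 RPKM, a log2 difference of 1.83 ± 0.24 (adjusted p = 0.0015). The Xist-positive library was the highest of both groups for Erdr1 and of the Apoe-/- group for G530011O06Rik, and no library crossed to the level of the other genotype. Mid1, a ubiquitin ligase gene that overlaps G530011O06Rik, differed by 0.69 (adjusted p = 0.10). Reads of these neighbours may be shared between copies, so their values are uncertain. Lancl3 was near the limit of detection, with 2, 7 and 1 reads in Apoe-/- and 30, 19 and 29 reads in DKO libraries. Its ratio of means, 7.84, was above the 4.76 of Erdr1.

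H2-Q6, an MHC class I gene of the Qa group, was at 11.1, 15.3 and 12.6 RPKM in Apoe-/- and 20.2, 18.4 and 24.5 RPKM in DKO libraries, a log2 difference of 0.70 ± 0.15 (adjusted p = 0.049). H2-Q9, which encodes a Qa-2 antigen, was at 1.71, 2.31 and 1.90 RPKM against 3.64, 3.42 and 5.04 RPKM, a difference of 0.98 ± 0.18 (adjusted p = 0.026). In both genes the Xist-positive library was the highest of its group. H2-Q7 and H2-Q4 near H2-Q6 also had all DKO libraries above all Apoe-/- libraries, as did 18.3% of all tested genes. Their differences of 0.53 and 0.19 did not pass (adjusted p = 0.22 and 0.28). H2-Q5, between H2-Q4 and H2-Q6, differed by 0.30 and did not pass either (adjusted p = 0.44). The classical genes H2-K1 and H2-D1 overlapped between genotypes. H2-Q6 shares 13.9% of its 50-base stretches with H2-Q7, so the split of reads within the family is uncertain.

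Ly6a, which encodes the stem cell antigen Sca-1, was at 83.7, 106 and 129 RPKM in Apoe-/- and 156, 149 and 163 RPKM in DKO libraries, a log2 difference of 0.57 ± 0.11 (adjusted p = 0.045). Notch4, a Notch receptor gene, was at 0.904, 0.693 and 0.725 RPKM against 1.89, 1.61 and 1.87 RPKM, a difference of 1.12 ± 0.20 (adjusted p = 0.026). Both groups were tight and separate for Notch4, and Apoe-/- replicate 3 came closest to the DKO level for Ly6a. Cd38, the ectoenzyme that consumes NAD and a marker of inflammatory activation in mouse macrophages, was lower in DKO, at 0.501, 1.01 and 0.888 RPKM against 0.231, 0.324 and 0.328 RPKM. Its log2 difference was -1.15 ± 0.24 (adjusted p = 0.046), on 66, 132 and 119 against 29, 48 and 41 reads.

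Genes of nucleotide breakdown outside the nucleus were called in both directions. Entpd4b was at 4.86, 5.36 and 5.85 RPKM in Apoe-/- and 3.25, 3.29 and 3.03 RPKM in DKO libraries, a log2 difference of -0.73 ± 0.08 (adjusted p = 1.4e-04). Entpd4 was at 2.21, 2.43 and 2.49 RPKM against 1.53, 1.53 and 1.29 RPKM, a difference of -0.68 ± 0.09 (adjusted p = 0.0021). The genotypes were clearly apart in both. They encode a nucleoside diphosphatase of the Golgi and lysosomes, lie 188.2 kb apart on chromosome 14, and share all 8206 of their 50-base stretches in GENCODE M21, so they are 1 signal split over 2 entries and not independent calls. Nt5e (CD73), which turns AMP into adenosine outside the cell, was higher in DKO at 1.04, 1.13 and 1.05 against 1.87, 1.89 and 1.51 RPKM, a difference of 0.66 ± 0.13 (adjusted p = 0.045). Adora2b, an adenosine receptor gene, was at 4.65 to 5.90 RPKM in Apoe-/- and 7.57 to 8.81 RPKM in DKO libraries and did not pass (adjusted p = 0.075). Of 15 measured genes of this list, which includes the purinergic receptors, Entpd4, Entpd4b and Nt5e were called, against 0.21% of all tested genes. The 2 Entpd4 entries count as 1 signal.

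Scd2, a stearoyl-CoA desaturase that makes monounsaturated fatty acids, was lower in DKO. It was at 4.36, 4.6 and 8.07 RPKM in Apoe-/- and 2.58, 2.18 and 2.58 RPKM in DKO libraries, so that Apoe-/- replicate 3 stood above the rest of its group. The log2 difference was -1.13 ± 0.18 (adjusted p = 0.011). Of 18 measured genes of fatty acid synthesis and desaturation Scd2 was the one called, where 0.21% of all genes were called. At an unadjusted p under 0.05, 2 of them were lower and 1 higher, and after rescaling of the libraries 9 were lower and 0 higher, where 6.18% of all genes were lower. Fasn, the fatty acid synthase gene, was at 11.3 to 12.9 against 12.1 to 14.2 RPKM. None of 23 measured cholesterol synthesis genes reached an unadjusted p under 0.05 in limma, although 5 were lower after rescaling of the libraries. Of 14 liver X receptor (LXR) targets, 3 were lower at that p and 0 higher, against 1.25% and 16.1% of all genes. After rescaling 7 were lower and 0 higher, against 6.18% and 5.86%. Among the 3 was Scd2, the one called, which is counted in both lists. Of the 3, Abca1, a cholesterol efflux pump, was at 6.40, 19.6 and 14.3 RPKM in Apoe-/- and 4.96, 5.90 and 11.2 RPKM in DKO libraries, and Abcg1 at 12.6, 26.9 and 26.0 against 9.24, 11.1 and 18.0 RPKM. Both overlapped between genotypes and did not pass (adjusted p = 0.22 and 0.15).

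Olfml3, a secreted glycoprotein of the olfactomedin family, was at 18.8, 18.2 and 18.6 RPKM in Apoe-/- and 37.3, 33.4 and 32.2 RPKM in DKO libraries, a log2 difference of 0.88 ± 0.09 (adjusted p = 1.3e-04). Fos, the AP-1 subunit induced within minutes of many stimuli, was at 57.6, 64.6 and 61.6 RPKM against 94.2, 86.8 and 95.5 RPKM, a difference of 0.59 ± 0.09 (adjusted p = 0.0049). For both genes the spread within a genotype was small beside the gap between them. Of 16 measured immediate early genes Fos was the one called, where 0.21% of all genes were called. At an unadjusted p under 0.05, 5 were higher and 1 lower, against 16.1% and 1.25% of all genes. After rescaling of the libraries 2 were higher and 1 lower. Its partner Jun was at 21.3 to 23.0 and 22.1 to 30.1 RPKM and did not pass (adjusted p = 0.25). Dusp1, a phosphatase of MAP kinases, was at 9.99 to 12.5 and 14.4 to 19.0 RPKM (adjusted p = 0.14).

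The other called genes were all higher in DKO. Efcab7, a ciliary EF-hand protein gene, was at 0.390, 0.331 and 0.791 RPKM in Apoe-/- and 1.94, 1.65 and 1.79 RPKM in DKO libraries, a log2 difference of 1.72 ± 0.28 (adjusted p = 0.011). Efcab7 overlaps Itgb3bp, and the strand setting of the counting is not given in the sources used here. Rgcc, a regulator of the cell cycle induced by complement, was at 0.551, 0.481 and 0.394 RPKM against 1.53, 1.02 and 0.921 RPKM, a difference of 1.11 ± 0.18. Uchl1, a deubiquitinating enzyme best known from neurons, was at 8.42, 9.29 and 10.5 RPKM against 15.9, 14.7 and 19.3 RPKM, a difference of 0.81 ± 0.13. Both had an adjusted p of 0.011. Smaller differences were found for Camsap3, a microtubule minus-end protein (0.79 ± 0.14), the noncoding gene Snhg16 (0.74 ± 0.13), Fam83f (0.65 ± 0.09), the zinc finger gene Zkscan3 (0.59 ± 0.09), Cdca7 (0.56 ± 0.10) and Mcrip2 (0.50 ± 0.10). Camsap3 was low, with 38, 27 and 40 reads in Apoe-/- and 67, 79 and 78 reads in DKO libraries, whereas Cdca7 was at 7.17, 6.65 and 7.26 RPKM against 11.2, 10.6 and 9.47 RPKM.

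Treml4 lies at chr17:48264295-48275360 (mm10, plus strand). The called genes Erdr1, H2-Q9 and Snhg16 have no GENCODE M21 position and are not counted here. Of the 24 called genes with a position, 4 lie on chromosome 17, Treml4 among them. That is 0.605% of its 661 tested genes, against 0.21% of all tested genes, 0.647% on chromosome 13 and 0.726% on chromosome 14. Besides Treml4, the called genes of chromosome 17 start 12.8 Mb (H2-Q6), 13.7 Mb (Notch4) and 22.4 Mb (Mcrip2) from the start of Treml4. Among the 10 tested genes on each side of Treml4 none was called in limma, 1 was higher and 1 lower at an unadjusted p under 0.05, and the median log2 difference was 0.04. Within 5 Mb there were 82 other tested genes, none of them called, with 16 higher and 3 lower at that p and a median of 0.09, the value of all genes. The closest neighbours Trem3 and Treml2 were at 1.42 to 1.85 against 1.28 to 1.56 RPKM and at 0.122 to 0.159 against 0.139 to 0.187 RPKM.

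**Figure D3:**
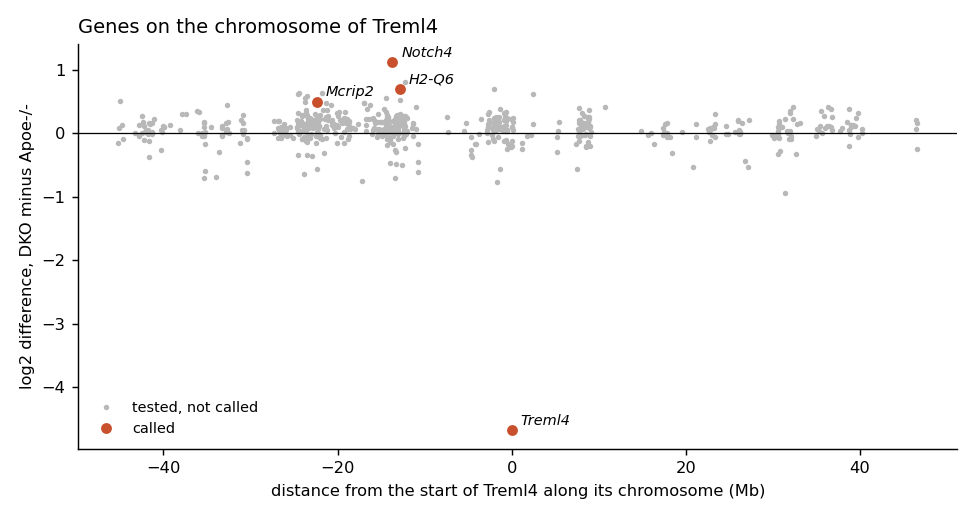
Log2 difference of DKO minus Apoe-/- for the 661 tested genes of chromosome 17, against the distance of their start from that of Treml4 in Mb; called genes are in orange. Treml4 is alone at its position, and the called genes H2-Q6, Notch4 and Mcrip2 lie 12.8 to 22.4 Mb to the left.

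Genes of the innate immune pathways that Treml4 has been tied to differed little. Of 31 measured interferon response genes none was called and none reached an unadjusted p under 0.05 in limma, and their median log2 difference was -0.08. Rsad2, an antiviral gene, was at 29.2, 38.3 and 51.9 RPKM in Apoe-/- and 25.9, 34.8 and 39.0 RPKM in DKO libraries, with overlapping ranges. Of 18 genes of endosomal Toll-like receptor signalling none was called and 1 reached that p, Irf3, which encodes an interferon-inducing factor, at 14.2 to 17.9 against 17.8 to 18.5 RPKM (adjusted p = 0.28), while after rescaling 0 were higher and 1 lower. Of 28 inflammatory cytokine and chemokine genes none was called and 2 were lower at that p, Nos2, the inducible nitric oxide synthase gene (-0.53), and the chemokine gene Ccl6 (-0.35). Of 18 measured genes that the study had followed in untreated or LPS-treated Treml4-/- cells none was called. At that p 1 was higher, Cav2, a caveolin gene, by 0.19. The study had compared those cells with wild-type cells and reported Cav2 after M1 stimulation. The cells here lack Apoe and were not stimulated, so the 2 settings are not alike. Of 14 genes of MHC class II and co-stimulation, none reached that p.

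Of 27 cell cycle genes none was called, because no difference that passed the adjusted p reached 1.4-fold. At an unadjusted p under 0.05, 14 were higher and none lower, where 16.1% of all genes were higher and 1.25% lower. The median log2 difference was 0.26 against 0.09 over all genes. After rescaling of the libraries 13 were higher and 2 lower, against 5.86% and 6.18% of all genes, with a median of 0.16. Mcm6 and Mcm2, subunits of the replicative helicase, passed the adjusted p. Mcm6 was at 44.7, 42.6 and 50.2 RPKM in Apoe-/- and 58.7, 58.7 and 54.4 RPKM in DKO libraries, a difference of 0.32 ± 0.06 (adjusted p = 0.045). Mcm2 was at 22.5, 22 and 24.6 RPKM against 30.0, 30.3 and 26.6 RPKM, a difference of 0.33 ± 0.07 (adjusted p = 0.047). Mki67, the proliferation antigen, was at 54.9 to 64.5 and 53.2 to 68.1 RPKM, and the cyclin genes Ccnb1 and Ccna2 differed by 0.03 each. In all 14 of the higher genes DKO replicate 3, the Xist-positive library, was the lowest of the DKO libraries, as in 25 of the 27 listed. Apoe-/- replicate 2, also Xist-positive, was the lowest of the Apoe-/- libraries in 11 of the 14 and in 18 of the 27. With the term for these libraries Ccnd1, Ccne1 and Ccne2, the cyclins that start replication, were called, at differences of 0.56, 0.49 and 0.50. That is 3 of the 27 genes, against 0.989% of all genes called higher with the term.

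Promoter windows of 300 bases from RefSeq (GRCm38.p6) were available for 22 of the 27 cell cycle genes, and 5 of these, Cdk2, Mcm3, Mcm5, Mcm6 and Mcm7, hold TTTCCCGC or TTTGGCGC on either strand, the letters searched for the E2F factors that switch on replication genes. That is 22.7%, against 3.53% of 10153 tested genes with a window. This share follows from the choice of the list and does not depend on the values measured. Higher and other members of the list were not compared. Of the 16 called genes with a window 1 (6.25%) holds these letters, Cdca7. The windows of Mcm6 (chr1:128359656-128359955, minus strand), Mcm5 (chr8:75109259-75109558, plus strand) and Cdca7 (chr2:72475969-72476268, plus strand) are shown as examples of genes with a higher mean in DKO, with the searched letters in capitals. Cdca7 is a called gene outside the cell cycle list.
Mcm6: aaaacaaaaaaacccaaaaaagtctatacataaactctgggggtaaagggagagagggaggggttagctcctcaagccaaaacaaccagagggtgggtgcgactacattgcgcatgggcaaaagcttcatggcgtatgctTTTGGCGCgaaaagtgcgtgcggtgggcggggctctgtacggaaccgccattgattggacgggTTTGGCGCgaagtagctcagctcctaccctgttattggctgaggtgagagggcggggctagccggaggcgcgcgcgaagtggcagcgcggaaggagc
Mcm5: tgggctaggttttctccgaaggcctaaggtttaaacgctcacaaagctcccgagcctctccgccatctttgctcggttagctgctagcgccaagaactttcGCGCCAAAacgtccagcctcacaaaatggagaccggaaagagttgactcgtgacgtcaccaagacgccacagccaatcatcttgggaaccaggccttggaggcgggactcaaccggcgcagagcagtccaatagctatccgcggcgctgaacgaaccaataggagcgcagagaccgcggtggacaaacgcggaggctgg
Cdca7: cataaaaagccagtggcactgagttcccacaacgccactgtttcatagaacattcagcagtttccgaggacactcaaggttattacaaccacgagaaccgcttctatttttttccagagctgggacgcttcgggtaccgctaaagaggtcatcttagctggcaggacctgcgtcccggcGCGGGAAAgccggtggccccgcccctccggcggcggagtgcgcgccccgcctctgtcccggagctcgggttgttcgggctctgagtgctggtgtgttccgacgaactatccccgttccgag
Mcm6 holds the letters 2 times, and Mcm5 and Cdca7 once each, in Mcm5 and Cdca7 on the opposite strand. The match describes these letters only, and binding was not measured.

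Genes of macrophage activation state were mixed. Of 20 measured polarization genes Cd38 was the one called, where 0.21% of all genes were called. At an unadjusted p under 0.05, 6 were lower and 3 higher (6 and 1 after rescaling). Over all genes 1.25% were lower and 16.1% higher at that p (6.18% and 5.86% after rescaling). With the term for Xist-positive libraries Cd38, Mrc1, Cd163, Mgl2 and Acod1 were called lower and Myc higher. Over all genes 0.351% were called lower and 0.989% higher with the term. Mrc1, the mannose receptor gene of alternatively activated macrophages, was at 50.4, 74.7 and 71.1 RPKM in Apoe-/- and 31.3, 39.1 and 44.2 RPKM in DKO libraries, a difference of -0.77 ± 0.20 (adjusted p = 0.093, and 0.0012 with the term). Acod1, which makes itaconate in inflammatory macrophages, was at 122, 245 and 168 RPKM against 79.4, 90.9 and 146 RPKM, overlapping between genotypes (adjusted p = 0.20, and 8.9e-04 with the term). The lower genes thus included markers of both alternative (Mrc1, Cd163, Mgl2) and inflammatory (Acod1, Cd38) activation. Myc was at 10.9, 7.98 and 8.01 RPKM against 17.3, 16.4 and 12.7 RPKM, a difference of 0.78 (adjusted p = 0.18, and 0.013 with the term).

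**Figure D4:**
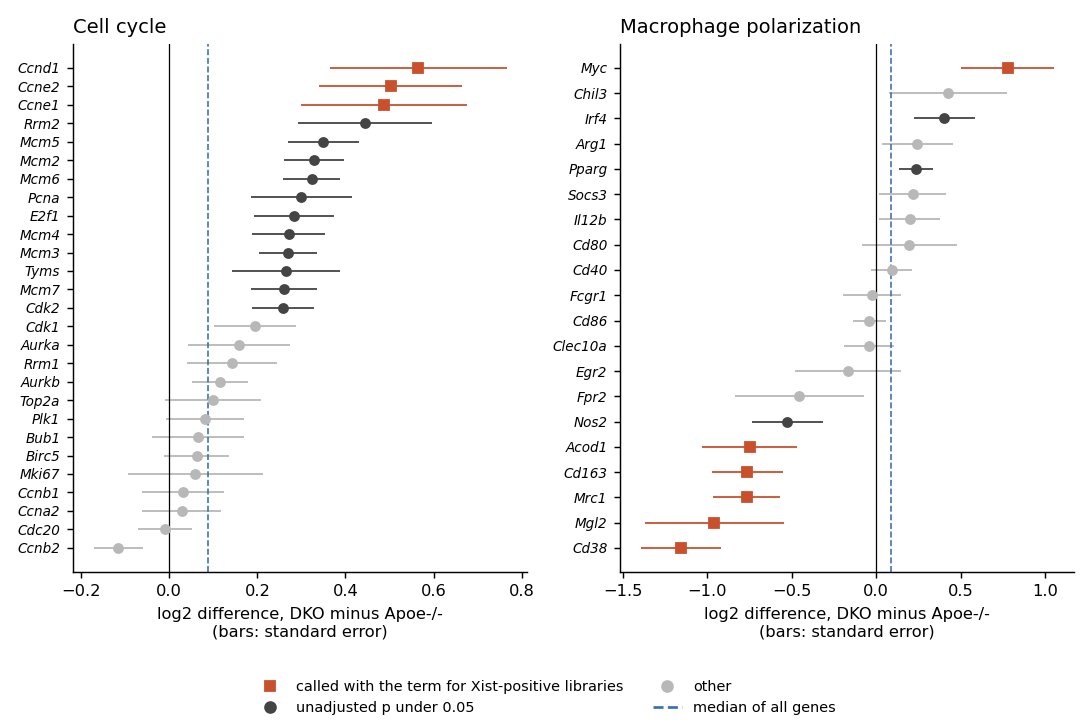
Log2 difference of DKO minus Apoe-/- with its standard error for the 27 cell cycle and 20 macrophage polarization genes; orange squares are genes called with the term for Xist-positive libraries, dark circles other genes with an unadjusted p under 0.05, and the dashed line the median of all genes, 0.09. Of the cell cycle genes 25 of 27 lie above 0, and of the polarization genes 9 of 20.

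Of 10 neutrophil and progenitor markers 9 were measured, of which none was called, 1 was higher and 0 lower at an unadjusted p under 0.05, and 6 had a positive difference. Ly6g, the defining neutrophil gene, was at 0 in all 6 libraries. Their sum was 43.0, 32.1 and 50.3 RPKM in Apoe-/- and 86.4, 72.5 and 38.9 RPKM in DKO libraries. DKO replicates 1 and 2 were the highest and DKO replicate 3 lay within the Apoe-/- range. S100a9, the most abundant of them, was at 18.5, 12.6 and 19.8 RPKM against 39.9, 33.3 and 17.6 RPKM (adjusted p = 0.20, and 0.0089 with the term for Xist-positive libraries). With the term 2 of the 9, S100a9 among them, were called higher and 0 lower, against 0.989% and 0.351% of all genes. Mpo and Elane, made by granulocyte progenitors, were at most 1.47 RPKM in every library. The part of such cells in the differences was not tested. In bulk RNA a change in the number of cells of a type and in the RNA of each cannot be told apart.

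With that term 145 further genes were called, 105 higher and 40 lower. Among those with the largest differences were Nptx1, a neuronal pentraxin gene, at 1.74, 1.09 and 1.58 RPKM in Apoe-/- and 4.69, 3.71 and 2.30 RPKM in DKO libraries (1.19, adjusted p = 2.2e-05 with the term), and the X-linked gene Xlr4a at 0.449, 0.606 and 1.4 against 2.77, 1.84 and 1.60 RPKM (1.34, adjusted p = 0.0082 with the term). In both the Xist-positive DKO library was the lowest of its group. Dusp5, a phosphatase of ERK, and Id1, an inhibitor of DNA-binding factors, differed by 1.01 each, and Acsbg1, Bik and Tnfrsf10b by 0.98, 0.91 and 0.73. Lower with the term, besides Mrc1, were Cst7, a cystatin (-0.61), the ubiquitin ligase gene Ubr2 (-0.56), the unnamed locus LOC105244034 (-0.56), Plxdc2 (-0.55), the Ras exchange factor gene Rasgrp3 (-0.54), the pseudogene Pisd-ps1 (-0.50) and Ldlrad3 (-0.50).

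The 27 genes were also followed in the oxLDL-treated libraries of the same genotypes, which share the fit. The labels do not say whether libraries with the same replicate number came from 1 mouse. With 10 µg/ml 10 of them were called and with 60 µg/ml 11, 9 at all 3 treatments and 15 at neither amount. The background was 0.0857% of tested genes called with 10 µg/ml and 0.125% with 60 µg/ml. Their sign was the same for 26 of 27 with 10 µg/ml and 25 of 27 with 60 µg/ml. Nnt differed by 0.82, 0.82 and 0.78 at 0, 10 and 60 µg/ml, and Entpd4b by -0.73, -0.70 and -0.65. Slc40a1 differed by 1.98, 2.55 and 2.74, at means of 1.92, 3.18 and 9.16 RPKM in Apoe-/- and 7.77, 19.4 and 62.0 RPKM in DKO libraries. Its interactions with oxLDL of 0.56 and 0.76 had unadjusted p-values of 0.018 and 0.0026 and did not pass after adjustment (adjusted p = 1.0 and 0.51).

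Whether a difference was particular to untreated cells was tested as the interaction of genotype and oxLDL. No interaction with 10 µg/ml was called in limma (0%), where 246 genes had an unadjusted p under 0.05, and 2 with 60 µg/ml were (0.0156%), Treml4 and Dnajb3. This fit does not pair libraries of the same replicate number, which correlate within a genotype. With the animal as a random block, 510 and 2152 genes reached that p, against 246 and 1256, and still 0 and 2 were called. The interaction p-values given for single genes are from the fit without the block. The Scd2 difference was 0.16 and 0.10 with 10 and 60 µg/ml and did not pass at either amount. Scd2 rose with oxLDL in both genotypes to means of 10.9 and 11.7 RPKM in Apoe-/- and 12.2 and 12.5 RPKM in DKO libraries, and its interactions of 1.29 and 1.23 had unadjusted p-values of 1.1e-04 and 1.7e-04 but did not pass after adjustment (adjusted p = 1.0 and 0.41). Rgcc likewise differed by 0.15 and 0.40 with oxLDL, with interactions at unadjusted p-values of 0.0016 and 0.012 (adjusted p = 1.0 and 0.51). Mcrip2 differed by 0.06 and -0.09, and its interactions did not pass either.

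**Figure D5:**
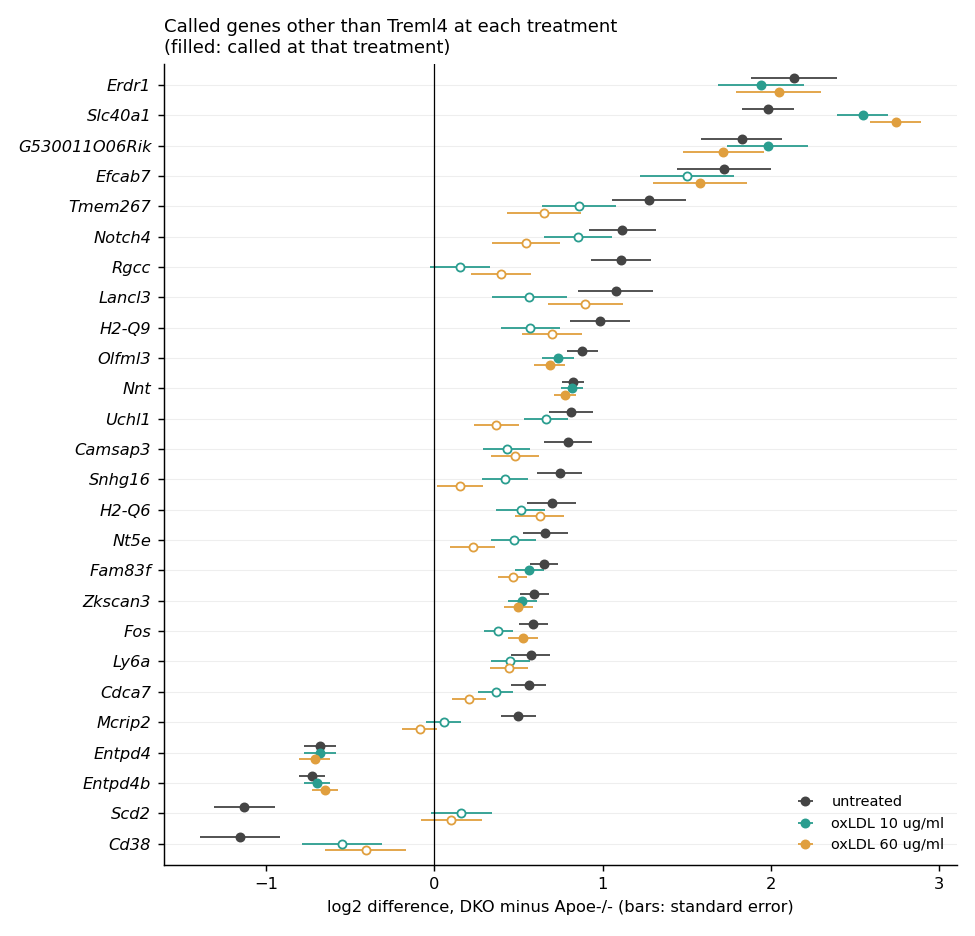
Log2 difference of DKO minus Apoe-/- with its standard error for the 26 called genes other than Treml4, in untreated cells and with 10 or 60 µg/ml oxLDL; filled circles are called at that treatment. Nnt, Entpd4, Entpd4b and Erdr1 hold their difference at all 3, while Scd2 and Mcrip2 lie near 0 with oxLDL.

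The calls rested unevenly on single libraries. Of the 27 genes, 11 were called whichever of the 6 libraries was left out: Treml4, Slc40a1, Nnt, Olfml3, Entpd4, Entpd4b, Erdr1, G530011O06Rik, Fam83f, Fos and Zkscan3. H2-Q6, Lancl3 and Mcrip2 lost their call without any 1 of the 6, with adjusted p-values up to 0.19, 0.25 and 0.18. Nt5e, Ly6a and Snhg16 lost it in 5 of the 6 fits, Cd38, Cdca7, Notch4 and Tmem267 in 4, Efcab7, Camsap3 and Uchl1 in 3 and H2-Q9 in 2. Rgcc lost it without DKO replicate 1 (adjusted p = 0.076) and Scd2 without DKO replicate 2 (adjusted p = 0.063). No sign changed. The number of called genes was 12 without DKO replicate 1, 15 without DKO replicate 2, 14 without Apoe-/- replicate 2 and 75 without DKO replicate 3, the Xist-positive library.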

How the data were processed

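RNA of the 18 libraries was sequenced, and per the labels reads were aligned with STAR to mm10. The deposited file holds 1 RPKM value per gene and library, made by the authors. The study's methods name a workflow with STAR, RnaSeQC and Subread, and a stranded kit in the passage on its other RNA-seq experiments. The annotation and the strand setting of the counting are not given in the sources used here. The labels name 2 sequencing platforms and mention LPS, which the series design does not, and the study's methods give a longer oxLDL exposure than the 16 h of the series design.

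Differences were computed in limma 3.58.1 (R 4.3.3) on log2(RPKM + 0.1), which understates the change of low genes, with 1 mean for each of 6 groups of 3 libraries, a trended empirical Bayes variance and Benjamini-Hochberg adjustment over the 12838 genes that reached 0.1 RPKM in 3 or more libraries. Adjusted p-values are from this fit unless stated. Genes were called at an adjusted p under 0.05 and a fold of at least 1.4. Libraries were grouped by the titles in the labels. Gene lists are described by counts and medians, without a set test. Every list count at an unadjusted p under 0.05 stands against 16.1% of all genes higher and 1.25% lower. After rescaling these shares were 5.86% and 6.18%. Members and lists were chosen with earlier results of these data known. The genes named are Treml4, Apoe, the called genes, up to 2 members with the smallest p of each list, genes called in an interaction, and up to 8 in each direction called with the term for Xist-positive libraries. Others named beside them were chosen after their values were seen.

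Depth and read counts of low genes were recovered from whole steps in the RPKM, which 88.4% of 5185 low genes showed within a tolerance of 0.02 reads or slightly more for higher counts. On simulated data for this comparison, run on 12838 genes, the fit called 78.8% of 66 genes changed by 0.6 on the log2 scale, 97.0% of 67 changed by 1 and 98.5% of 67 changed by 2, with 4 calls among 12638 unchanged genes. Changes were put only into genes with a mean of at least 1 RPKM. The simulated noise was independent between libraries, without correlated replicates, Xist-positive libraries or a shift of all genes. These shares therefore need not hold for the real libraries or for low genes. Replicate numbers pair libraries within a genotype (r = 0.18 to 0.69 between deviations from the group means) but not between genotypes (0.27, -0.33 and -0.08 untreated). Alternatives covered scaling, pseudocount, filter, blocks, the Xist-positive libraries and single libraries, 19 planned and 2 added after seeing the data. Positions are from GENCODE M21 and promoter sequences from RefSeq (GRCm38.p6). The deposited gene column has 24 symbols that were converted to dates and were kept so.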

Additional observations from a re-analysis of the deposited data

Results flagged for a closer look

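The interaction of genotype and 60 µg/ml oxLDL differed from 0 for 2 genes in limma. For Treml4 it was -1.70 ± 0.22 (adjusted p = 0.012). Treml4 was at a mean of 2.65 RPKM in untreated and 8.27 RPKM in oxLDL-treated Apoe-/- cells, while all 3 DKO libraries with oxLDL had 0 reads. It rose by 1.65 on the log2 scale in Apoe-/- cells, whereas the DKO level is bounded below by the pseudocount. For Dnajb3, a co-chaperone gene, the interaction was 1.70 ± 0.26 (adjusted p = 0.031) on very few reads: 6, 5 and 4 in untreated Apoe-/-, 2, 4 and 1 in untreated DKO, 0 in all 3 Apoe-/- libraries with 60 µg/ml oxLDL and 5, 6 and 7 in the DKO libraries with it. In untreated cells Dnajb3 was not called (-0.51, adjusted p = 0.18).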

How the results depend on the processing

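All directions of the 27 called genes held in every alternative that was run. The 26 genes other than Treml4 kept their call in 419 of 543 refits and lost it in 124, and Treml4 kept it in all 21. Of the 27 genes, 8 were called in all 21 alternatives, 19 with median-ratio rescaling and 12 with only the 6 untreated libraries in the fit. Against 27 called genes, there were 17 without a filter on low values, 13 with only the 6 untreated libraries in the fit, 51 without a limit on the fold, 172 with a term for Xist-positive libraries and 308 without those libraries. Alternatives added after seeing the data, which combine that term with rescaling or with only the 6 untreated libraries, gave 113 and 91. Leaving out 1 library gave 12 to 75. The split of 22 higher and 5 lower became 14 and 9 with median-ratio scaling, 16 and 9 with quantile normalization, 11 and 9 without Apoe-/- replicate 1, and 46 and 67 with the term and rescaling together. With the replicate block, 82 genes were called with the number as an additive term and 42 with the animal as a random block. The numbers do not pair the genotypes, so the additive block is not a paired design. The interaction with 60 µg/ml oxLDL, 2 genes, became 0 with a pseudocount of 0.01 or a filter of 1 RPKM, 1 with a pseudocount of 1 and 1 with the additive replicate block, and 1 to 2 without single libraries. The causes of these shifts were not tested. Values under about 0.0723 RPKM on a 1-kb transcript rest on at most 3 reads.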

Other observations

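Matrix and metalloproteinase genes, which remodel tissue, did not pass the test between genotypes. Of 19 measured matrix and metalloproteinase genes 1 was higher and 1 lower at an unadjusted p under 0.05 (0 and 2 after rescaling of the libraries), with a median log2 difference of -0.19. Mmp9, a gelatinase, was at 1.55, 1.59 and 1.33 RPKM in Apoe-/- and 0.795, 0.889 and 1.42 RPKM in DKO libraries, and Mmp19 at 7.76, 8.83 and 8.23 against 9.91, 12 and 8.73 RPKM. In both, DKO replicate 3 lay closest to the Apoe-/- libraries. Of 17 complement and Fc receptor genes, 1 was lower at that p, the inhibitory receptor gene Fcgr2b at 31.3, 47.5 and 39.4 against 25.8, 30.1 and 34.0 RPKM, and 0 were higher (median -0.16), with 4 lower after rescaling.

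Of 21 glycolysis genes 4 were higher and 0 lower at an unadjusted p under 0.05, near the 16.1% of all genes that were higher at that p, and none was called. Slc16a1, a lactate transporter gene, was at 8.91, 7.63 and 8.64 RPKM in Apoe-/- and 11.8, 11.1 and 10.7 RPKM in DKO libraries (adjusted p = 0.068), with no overlap. Plin2, the lipid droplet coat protein gene, was at 238, 245 and 256 RPKM against 349, 370 and 260 RPKM (adjusted p = 0.14), where DKO replicate 3 was at the Apoe-/- level. Of 19 NRF2 target genes 2 were higher and 1 lower (1 and 2 after rescaling), led by Taldo1, an enzyme of the pentose phosphate pathway, at 270, 307 and 296 against 379, 354 and 330 RPKM (adjusted p = 0.092). After rescaling of the libraries the glycolysis counts were 2 higher and 1 lower.

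Pairs of libraries were also compared gene by gene. The number of genes that differed by at least 1.4-fold was 587 between DKO replicates 1 and 2, 1159 and 1267 between each of these and DKO replicate 3, 951 to 1281 between Apoe-/- libraries and 863 to 1645 between genotypes, so that single pairs of different genotypes and of the same genotype overlapped in this number.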
